A study of Mus musculus with 8 samples.

Results

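LIF+PD and 2i+LIF differ by the GSK3 inhibitor CH (CHIR99021), and the comparison of both media is that of mouse embryonic stem cells (ESCs) after withdrawal of CH. Its members are the 4 of 8 RNA-seq cultures whose labels read LIF+PD (2 cultures) or 2i+LIF (2 cultures). All cultures were RGd2 ESCs (Rex1GFPd2), a line from strain 129 with a destabilised GFP reporter of Rex1 (Zfp42), grown on gelatin in serum-free N2B27 medium. They had been expanded for 6 passages in 2i, which is CH at 3 µM with the MEK inhibitor PD (PD0325901) at 1 µM, and were then carried for 5 passages, to passage 11, in the stated medium, with a split every 3 days at 15000 cells per square centimetre. The 2i+LIF cultures received LIF, CH and PD, and the LIF+PD cultures received LIF and PD. The 2i cultures (CH and PD, 2 cultures) and the CH+LIF cultures (2 cultures) also held CH and are used for comparison. Thus PD was shared by 2i+LIF, LIF+PD and 2i, each culture had been in CH before, and a single line was used.

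GSK3 is a kinase of the complex, built on Axin and APC, that marks β-catenin for destruction. When Wnt ligands or CH silence GSK3, β-catenin accumulates, enters the nucleus and binds TCF/LEF factors at their target genes. In ESCs it also relieves the repression exerted by Tcf7l1 (Tcf3) on genes of naïve pluripotency, whereas LIF acts through JAK kinases and Stat3, and PD blocks the route from FGF through MEK to ERK.

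Genes of ESC identity were expressed at high levels in the 4 cultures. Levels are given as FPKM (fragments per kilobase of a transcript scaled by library) and were tested with limma as log2(FPKM + 1). Pou5f1 (Oct4) was at 2230 and 1929 FPKM in 2i+LIF and 1722 and 1625 FPKM in LIF+PD, and the difference of -0.31 ± 0.11 (SE) had an adjusted p of 0.0677. Nanog was at 549 and 476 FPKM in 2i+LIF and 500 and 493 FPKM in LIF+PD, and the cultures of both media overlapped. The sum of 5 identity genes (Pou5f1, Sox2, Nanog, Zfp42 and Esrrb) was 3489 and 3041 FPKM in 2i+LIF and 2929 and 2784 FPKM in LIF+PD. In each of the 8 cultures 11547 to 12012 genes reached 1 FPKM. Relative depth, estimated from a minority of weakly expressed genes, was 1 and 1.10 in 2i+LIF and 1.00 and 0.903 in LIF+PD. It was 0.499 and 0.968 in 2i and 1.17 and 1.18 in CH+LIF, so replicate 1 of 2i was the shallowest. The labels and the methods do not say whether the replicates were separate derivations, so p-values measure the spread between these cultures, which may be technical.

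Marker lists of other cell types were summed in the same way. Of 9 markers of extraembryonic endoderm, the sum was 1.95 and 2.48 FPKM in 2i+LIF and 3.81 and 5.27 FPKM in LIF+PD, with Ttr at 0 in the 4 cultures and Afp at 0 in 3 of them. The sum of 8 fibroblast markers was 1.73 and 2.17 FPKM in 2i+LIF and 3.83 and 5.53 FPKM in LIF+PD, and Col3a1, Dcn and Lum were listed at 0 in all 4. The 5 of 6 neural markers that were found summed to 2.70 and 2.57 FPKM in 2i+LIF and to 16.7 and 15.9 FPKM in LIF+PD, of which Pax6 gave 11.3 and 10.7 FPKM. The 6 trophoblast markers summed to 14.4 and 10.1 FPKM in 2i+LIF and to 17.4 and 21.5 FPKM in LIF+PD. In 2i+LIF most of that sum was Cdx2 (10.2 and 7.91 FPKM), and in LIF+PD it was Gata3 (14.4 and 18.4 FPKM). The 6 markers of 2-cell-like cells summed to between 0.251 and 0.993 FPKM in these 4 cultures. The part of such cells in the results was not tested. In bulk RNA, fewer cells of a type and less RNA per cell cannot be told apart.

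Of 12777 genes tested, 3413 (26.7%) passed a Benjamini-Hochberg adjusted p of 0.05 between LIF+PD and 2i+LIF. Of these, 2013 (15.8% of those tested) were higher and 1400 (11%) were lower in LIF+PD. For the 3413 genes, both cultures of a medium lay on the same side of both cultures of the other. This was not counted over all tested genes, and passing the test favours it, so it is no separate support. Among the 3413 genes the median size of the difference was 0.74 on the log2 scale. Of them, 1048 differed by at least 1, and 112 rose and 81 fell by at least 2. Higher genes made up 59.0% of the calls with FPKM as deposited, but 69.8% after rescaling to TPM (2561 of 3670), 74.4% with TPM over all genes (2696 of 3626), 53.5% with median-of-ratios size factors and 50.6% with quantile normalisation. The direction of a small difference depends on the scale, with the median of all genes at 0.036 as deposited and at 0.12 and 0.16 for the TPM scales. Without replicate 1 or 2 of 2i+LIF, 1864 and 1954 genes passed, and without replicate 1 or 2 of LIF+PD, 1930 and 2002 genes passed. Among protein-coding genes, 3222 of 11656 passed, and among lincRNAs 37 of 195.

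**Figure D1:**
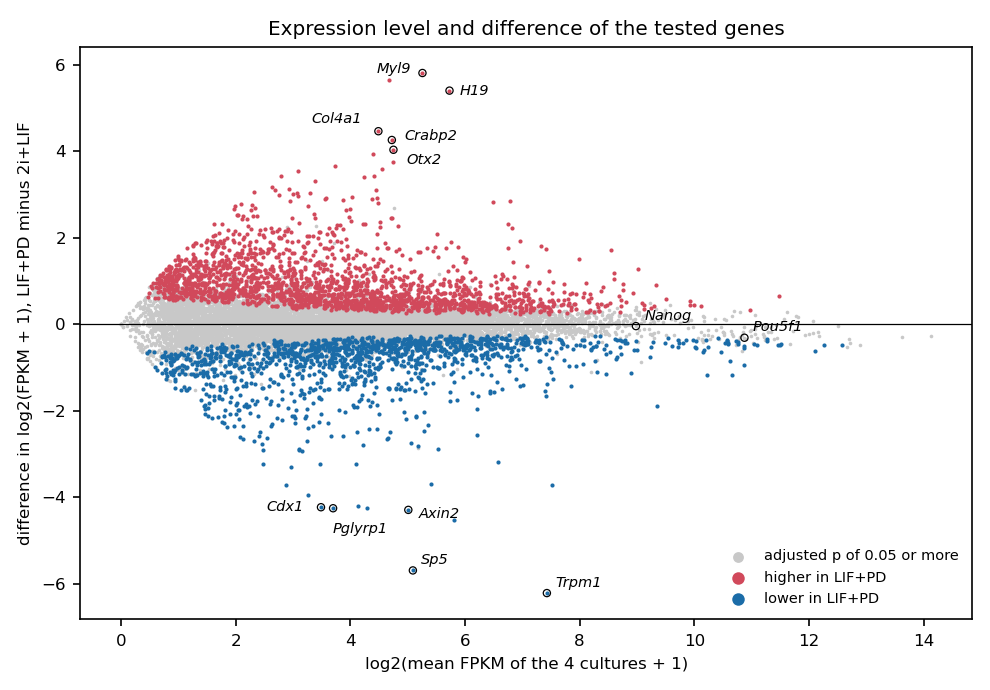
Each point is a tested gene, with log2(mean FPKM + 1) over the 4 cultures of 2i+LIF and LIF+PD on the x axis and the difference in log2(FPKM + 1), LIF+PD minus 2i+LIF, on the y axis. Red and blue points passed an adjusted p of 0.05 (2013 higher, 1400 lower), and circles mark 12 named genes, from Trpm1 at -6.21 to Myl9 at 5.81, while Nanog and Pou5f1 lie near the line of no difference.

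Axin2, a scaffold of the β-catenin destruction complex and itself a widely used target of the Wnt pathway, was at 61.3 and 59.4 FPKM in 2i+LIF and at 1.85 and 2.47 FPKM in LIF+PD. The 2i cultures (65.4 and 64.9 FPKM) and the CH+LIF cultures (68.4 and 63.8 FPKM) lay close to 2i+LIF, so the gene was low in the LIF+PD cultures and high in the 6 cultures with CH. Axin2 lies at chr11:108920349-108950783 (mm10, plus strand) and fell by 4.29 ± 0.11 on the log2 scale (SE, adjusted p = 2.13e-06). Sp5, a zinc finger factor of the same pathway at chr2:70474923-70477729 (plus strand), was at 69.4 and 62.3 FPKM in 2i+LIF and at 0.188 and 0.417 FPKM in LIF+PD. It fell by 5.69 ± 0.15 (adjusted p = 2.13e-06), with 28.6 and 21.9 FPKM in 2i and 45.0 and 41.8 FPKM in CH+LIF. Cdx1, a caudal homeobox gene, was at 24.1 and 16.5 FPKM in 2i+LIF and at 0.115 and 0.128 FPKM in LIF+PD (-4.23 ± 0.25, adjusted p = 5.30e-05). T (Brachyury), the T-box factor of the primitive streak, was at 4.86 and 3.64 FPKM in 2i+LIF, 0.161 and 0.210 FPKM in LIF+PD, 15.4 and 8.24 FPKM in 2i and 36.3 and 18.5 FPKM in CH+LIF. The cultures with CH thus differed among themselves for T, and those in LIF+PD were the lowest of the 8.

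TCF/LEF factors bind a short motif, searched here on both strands as CTTTGAA, or the same word with its last letters replaced by AT, TA or TT, in the 250 bases before each RefSeq start (GRCm38.p6, the same build as the deposited coordinates). The promoters of Sp5 and T are shown, with matches in capitals, because both genes fell to near 0. Cdx1 fell to near 0 as well but was not among the genes matched to a promoter. Sp5 (chr2:70474673-70474922, plus strand) holds 2 matches, 222 and 104 bases before its start, and T (chr17:8434173-8434422, plus strand) holds 1, 235 bases before its start.
Sp5: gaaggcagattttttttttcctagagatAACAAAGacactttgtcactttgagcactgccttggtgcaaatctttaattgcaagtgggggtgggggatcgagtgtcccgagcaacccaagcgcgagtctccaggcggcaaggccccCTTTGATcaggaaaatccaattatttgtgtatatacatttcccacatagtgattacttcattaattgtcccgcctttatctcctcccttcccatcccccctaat
T: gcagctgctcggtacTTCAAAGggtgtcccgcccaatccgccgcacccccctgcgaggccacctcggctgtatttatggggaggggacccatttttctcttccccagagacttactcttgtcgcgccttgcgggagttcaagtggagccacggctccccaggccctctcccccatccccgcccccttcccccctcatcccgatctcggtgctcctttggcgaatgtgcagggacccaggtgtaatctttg
No form of the motif occurs in the window of Axin2. Of 32851 promoters of this length, 14.8% held at least 1 match and 1.43% held 2 or more. Of 21 promoters of 13 genes of the Wnt target list, 6 held a match, each of a different gene. Among these genes, Sp5, T and Tnfrsf19 fell, Lef1 and Sp8 did not pass and Dkk1 was below the filter. Tcf7, which fell, held no match, and Cdx1, Notum and Znrf3, which also fell, were not among the 13 genes. A match describes the letters and is not a binding site.

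Of the 22 genes in the list of Wnt targets, 16 were tested. Of these, 8 fell and 2 rose (11% and 15.8% of all tested genes), and 6 did not pass, with a median difference of -0.47. The other 6 (Nkd1, Nkd2, Dkk1, Dkk4, Lgr5 and Wif1) stayed below the filter, with no value above 1.15 FPKM in any of the 8 cultures. Beside Axin2, Sp5, Cdx1 and T, the genes that fell were Tnfrsf19 (Troy), Notum, Tcf7 and Znrf3. Tnfrsf19, a receptor of the TNF family, was at 8.75 and 10.02 FPKM in 2i+LIF and 4.22 and 3.55 FPKM in LIF+PD (-1.09 ± 0.17, adjusted p = 0.00342). In CH+LIF it was at 5.52 and 3.92 FPKM, and LIF+PD minus CH+LIF did not pass (-0.22 ± 0.17, adjusted p = 0.374). Notum, a secreted enzyme that inactivates Wnt proteins, was at 90.2 and 94.7 FPKM in 2i+LIF and 56.5 and 46.5 FPKM in LIF+PD. Its level in CH+LIF (46.3 and 42.1 FPKM) did not differ from that in LIF+PD past the threshold (LIF+PD minus CH+LIF of 0.21 ± 0.12, adjusted p = 0.205). Tcf7 (Tcf1), a DNA partner of β-catenin, was at 64.9 and 59.6 FPKM in 2i+LIF and 44.6 and 41.3 FPKM in LIF+PD (-0.53 ± 0.09, adjusted p = 0.00381). Znrf3, a ligase that removes Wnt receptors from the membrane, was at 4.33 and 4.87 FPKM in 2i+LIF and 3.38 and 2.82 FPKM in LIF+PD (adjusted p = 0.0411). Its call was lost without any single one of the 8 cultures, with adjusted p between 0.0521 and 0.185, and under both TPM scales.

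Lef1, the other TCF/LEF factor of the list, did not pass. Lef1 was at 6.02 and 5.46 FPKM in 2i+LIF and 4.52 and 4.97 FPKM in LIF+PD (-0.23 ± 0.22, adjusted p = 0.483), but at 37.1 and 36.4 FPKM in 2i and 31.3 and 17.9 FPKM in CH+LIF. Lef1 was thus lower in LIF+PD, with a difference of LIF+PD minus 2i of -2.72 ± 0.22 (adjusted p = 0.000161). LIF+PD minus CH+LIF was -2.11 ± 0.22 (adjusted p = 0.000430). Ccnd1 (cyclin D1) rose from 66.6 and 67.6 FPKM to 95.2 and 88.3 FPKM (0.45 ± 0.11, adjusted p = 0.0184), and its call was lost without any single one of the 4 compared cultures (adjusted p between 0.0520 and 0.101). Ascl2 rose from 0.638 and 1.22 FPKM to 3.06 and 3.81 FPKM (adjusted p = 0.0364), and lost its call without any 1 of the 4 compared cultures or of the CH+LIF cultures (between 0.0552 and 0.171). Kremen1, Apcdd1, Bambi, Sp8 and Rnf43 did not pass, and Sp8 and Rnf43 were below 1 FPKM in the 4 cultures. Without any 1 culture, 7 targets were lower, and without any 1 of the 4 compared cultures 0 were higher. Against the 2i cultures, 11 of the 16 genes were lower and 1 was higher in LIF+PD (11.7% and 14.6% of all tested genes), and against CH+LIF 7 were lower and 1 was higher (13.1% and 18.6%). These comparisons share the LIF+PD cultures.

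**Figure D2:**
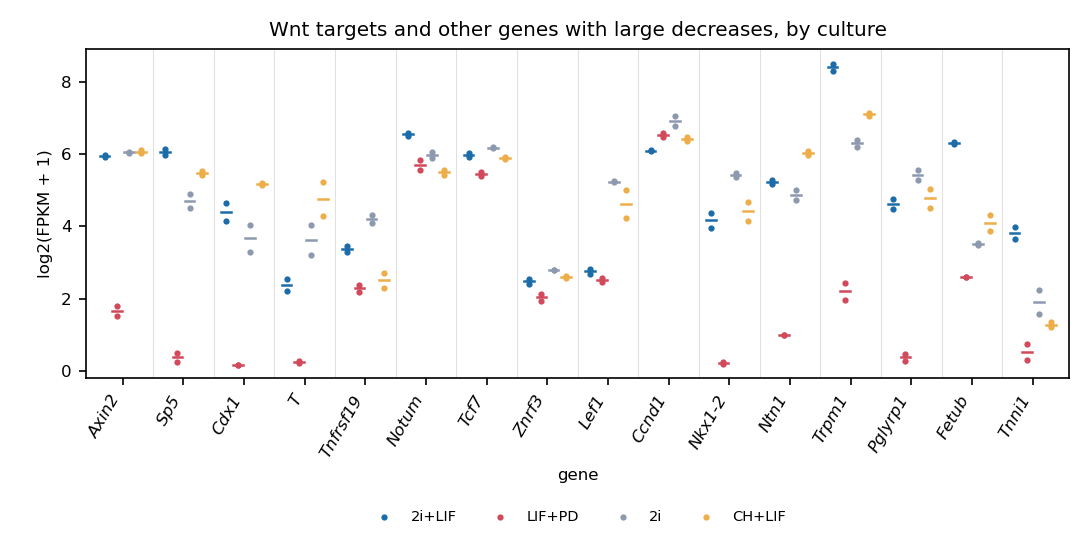
Expression of 10 Wnt targets and 6 other genes with large decreases, as log2(FPKM + 1) on the y axis, with 1 point per culture, a bar at the mean of 2 cultures and colours for the 4 media. Axin2 is low only in LIF+PD (1.85 and 2.47 FPKM against at least 59.4 FPKM), Lef1 is near 5 FPKM with and without CH when LIF and PD are present, and Fetub and Tnni1 are high in 2i+LIF alone.

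Of 24 genes for the pathway's own components, 23 were tested, 5 rose, 2 fell and 16 did not pass, with a median of 0.15, so the share that passed was near the 26.7% of all tested genes. Ctnnb1 (β-catenin) was at 316 and 357 FPKM in 2i+LIF and 425 and 356 FPKM in LIF+PD (0.21 ± 0.11, adjusted p = 0.204). Gsk3a, Gsk3b, Apc and Axin1 had adjusted p between 0.114 and 0.892. Wls, which carries Wnt proteins to the cell surface, fell from 4.31 and 3.35 FPKM to 0.602 and 0.954 FPKM (-1.44 ± 0.18, adjusted p = 0.00108). The Wnt co-receptors moved in opposite directions, as Lrp5 fell from 23.7 and 23.5 FPKM to 14.1 and 13.6 FPKM (-0.73 ± 0.12, adjusted p = 0.00381) and Lrp6 rose from 6.46 and 7.36 FPKM to 10.7 and 10.1 FPKM (0.53 ± 0.14, adjusted p = 0.0280). Tcf7l1, the repressor of the TCF family, rose from 147 and 141 FPKM to 212 and 204 FPKM (0.53 ± 0.11, adjusted p = 0.00957). Tle3, a co-repressor of the Groucho family, rose from 73.7 and 97.3 FPKM to 165 and 124 FPKM (0.75 ± 0.18, adjusted p = 0.0216), and Tle1 and Tle2 rose with it. The calls of Lrp6, Tcf7l1 and the 3 Tle genes each depended on single cultures of the 4 compared, with adjusted p up to 0.143 for Lrp6, 0.0581 for Tcf7l1 and 0.123 for Tle3 when 1 was left out. Without replicate 1 or 2 of 2i+LIF, 1 and 2 components were higher, without replicate 1 or 2 of LIF+PD 1 and 3, and without a culture of the other media 5 or 6. Porcn, the acyltransferase of Wnt proteins, was at 4.90 and 1.38 FPKM in 2i+LIF, at 0.478 and 1.34 FPKM in LIF+PD and at 16.8 to 20.05 FPKM in 2i and CH+LIF, and its difference from 2i+LIF did not pass (adjusted p = 0.0950).

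Trpm1, a cation channel known from the retina and from melanocytes, had the largest decrease of the genes named. It was at 316 and 362 FPKM in 2i+LIF and 4.44 and 2.86 FPKM in LIF+PD, and fell by 6.21 ± 0.16 (adjusted p = 2.13e-06). With 82.9 and 72.5 FPKM in 2i and 132 and 140 FPKM in CH+LIF, it was highest where CH and LIF and PD were all present. Pglyrp1, a secreted peptidoglycan recognition protein, fell from 26.0 and 21.3 FPKM to 0.380 and 0.210 FPKM (-4.25 ± 0.20, adjusted p = 2.32e-05). Ntn1 (netrin 1), a guidance ligand, fell from 38 and 34.7 FPKM to 0.979 and 0.983 FPKM (-4.24 ± 0.12, adjusted p = 3.07e-06). Nkx1-2, a homeobox gene of the caudal embryo, fell from 19.8 and 14.5 FPKM to 0.145 and 0.193 FPKM (-3.94 ± 0.20, adjusted p = 3.14e-05), and Cdx2, a caudal factor that also acts in the trophoblast, fell from 10.2 and 7.91 FPKM to 0.0433 and 0.0960 FPKM (-3.23 ± 0.25, adjusted p = 0.000157). For Pglyrp1, Ntn1 and Nkx1-2, the 6 cultures with CH lay between 14.5 and 67.3 FPKM. Cdx2 was also low in CH+LIF, at 1.90 and 0.733 FPKM, so high levels were confined to the 4 cultures with both CH and PD. Nefm, the middle neurofilament chain, fell from 35.2 and 29.3 FPKM to 0.738 and 0.874 FPKM (-4.20 ± 0.27, adjusted p = 8.57e-05). Trh, the precursor of thyrotropin-releasing hormone, fell from 383 and 293 FPKM to 39.8 and 15.1 FPKM and was at 240 to 553 FPKM in 2i and CH+LIF.

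A further set of the large decreases was high in 2i+LIF and lower in each of the other media. Fetub, a secreted protein of the fetuin family, was at 76.1 and 79.0 FPKM in 2i+LIF, 5.04 and 5.08 FPKM in LIF+PD, 10.2 and 10.5 FPKM in 2i and 19 and 13.7 FPKM in CH+LIF. Tnni1, a troponin of slow muscle, was at 14.8 and 11.6 FPKM in 2i+LIF and at no more than 3.68 FPKM in the 6 other cultures, and its difference between LIF+PD and CH+LIF did not pass (-0.75 ± 0.25, adjusted p = 0.0574). Crxos1, a homeobox gene, was at 183 and 157 FPKM in 2i+LIF, 21.7 and 14.4 FPKM in LIF+PD and 31.6 and 19.4 FPKM in CH+LIF, and it was higher in LIF+PD than in 2i (8.06 and 7.37 FPKM; 1.10 ± 0.24, adjusted p = 0.0138). Dmgdh, a mitochondrial enzyme of choline breakdown, was at 31.8 and 28.3 FPKM in 2i+LIF, 2.23 and 2.37 FPKM in LIF+PD and 6.01 to 9.19 FPKM in 2i and CH+LIF. For these 4 genes the presence of CH in 2i and in CH+LIF was not accompanied by the level of 2i+LIF. Ctsc (cathepsin C), another of the 15 largest decreases, was at 19 and 18.9 FPKM in 2i+LIF, 1.17 and 1.11 FPKM in LIF+PD, 5.64 and 3.46 FPKM in 2i and 18.2 and 17.8 FPKM in CH+LIF.

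Myl9, the regulatory light chain of smooth muscle and non-muscle myosin II at chr2:156775420-156781658 (plus strand), had the largest increase of the genes named. It was at 0.219 and 0.354 FPKM in 2i+LIF and at 51.9 and 96.6 FPKM in LIF+PD (5.81 ± 0.27, adjusted p = 2.32e-05). It was at 2.60 and 3.31 FPKM in 2i and 0.742 and 0.570 FPKM in CH+LIF, so the LIF+PD cultures stood apart from the other 6. Of 26 genes of the contractile list and its factor SRF that were found, 23 were tested. Of these, 16 rose and 2 fell (15.8% and 11% of all tested genes), and 5 did not pass, with a median of 0.91. Acta2, the actin of smooth muscle, was listed at 0 in both 2i+LIF cultures and was at 3.22 and 8.46 FPKM in LIF+PD (adjusted p = 0.00130). It did not exceed 0.117 FPKM in 2i and CH+LIF, so it met the filter only through LIF+PD. The tropomyosins Tpm2 and Tpm1, which run along actin filaments, rose from 2.36 and 2.74 FPKM to 34.8 and 50.4 FPKM (3.6 ± 0.17, adjusted p = 2.63e-05) and from 50.5 and 48.9 FPKM to 152 and 243 FPKM (1.93 ± 0.21, adjusted p = 0.000636). Cnn2 (calponin 2) rose from 28.1 and 23.0 FPKM to 159 and 226 FPKM (2.85 ± 0.26, adjusted p = 0.000288), and Zyx (zyxin), a protein of focal adhesions, rose from 4.04 and 5.18 FPKM to 13.9 and 22.1 FPKM (1.74 ± 0.22, adjusted p = 0.00135). Zyx was at 23.4 and 30.7 FPKM in CH+LIF, and its difference of -0.58 ± 0.22 between LIF+PD and CH+LIF did not pass (adjusted p = 0.0839). For these 6 genes replicate 2 of LIF+PD was the higher of the pair.

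Further members of this list were chosen after their values had been seen. Srf, the serum response factor that controls many of these genes, rose from 18.8 and 16.8 FPKM to 38.4 and 37.8 FPKM (1.06 ± 0.11, adjusted p = 0.000431), whereas its cofactor Mkl1 was at 9.10 and 10.1 FPKM and at 9.41 and 9.77 FPKM. Actb and Actg1, the β- and γ-actin genes of near-identical coding sequence, went in opposite directions. Actb rose from 2235 and 2178 FPKM to 3370 and 3594 FPKM (0.66 ± 0.09, adjusted p = 0.00196), and Actg1 fell from 496 and 475 FPKM to 223 and 217 FPKM (-1.14 ± 0.08, adjusted p = 0.000110). Because only uniquely mapped reads were kept, the split of reads between both genes is uncertain. Vim (vimentin) was the other gene that fell, from 608 and 573 FPKM to 379 and 405 FPKM. The fits that each left out 1 culture gave 13 to 16 higher members, and the scalings gave 15 or 16. Without any 1 of the 4 compared cultures 1 member was lower. Against 2i, 15 members were higher and 1 was lower in LIF+PD (14.6% and 11.7% of all tested genes). Against CH+LIF, 16 were higher and 3 were lower (18.6% and 13.1%).

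Genes of the YAP route, which like SRF responds to actin, were a smaller group. Of 11 tested, 5 rose and 1 fell (15.8% and 11% of all tested genes), and 5 did not pass, with a median of 0.34. Cyr61, a secreted matrix protein and YAP target, rose from 7.88 and 7.50 FPKM to 17.8 and 15 FPKM (1.00 ± 0.17, adjusted p = 0.00498), and Ajuba, an adaptor that restrains the Hippo kinases, rose from 36.3 and 35.1 FPKM to 61.7 and 58.3 FPKM (0.73 ± 0.08, adjusted p = 0.000639). Tead4, a DNA partner of YAP, fell from 25.0 and 25.8 FPKM to 14.1 and 11 FPKM (-0.97 ± 0.14, adjusted p = 0.00246) and was at 13.9 and 11.5 FPKM in 2i. Without replicate 1 or 2 of 2i+LIF or replicate 1 of LIF+PD 2 members were higher, and 4 without any other culture, as the calls of Ctgf, Tead2 and Yap1 were lost without single cultures (adjusted p up to 0.101, 0.0882 and 0.241).

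Collagen IV, the network-forming collagen of basement membranes, rose through both of its main chains. Col4a1 was at 0.917 and 0.986 FPKM in 2i+LIF and 41.1 and 42.9 FPKM in LIF+PD (4.46 ± 0.14, adjusted p = 3.64e-06), and Col4a2 at 0.840 and 0.960 FPKM and at 16.1 and 19.8 FPKM (3.31 ± 0.17, adjusted p = 3.14e-05). These genes lie head to head on chromosome 8 (chr8:11198423-11312826, minus strand, and chr8:11312805-11449287, plus strand). Both were at 0.598 to 1.75 FPKM in the 2i and CH+LIF cultures. Of 22 matrix and adhesion genes tested, 8 rose and 5 fell (15.8% and 11% of all tested genes), and 9 did not pass, with a median of 0.042. Col18a1, a collagen of basement membranes, rose from 26.7 and 24.0 FPKM to 95.0 and 85.3 FPKM (1.79 ± 0.10, adjusted p = 3.66e-05) and was higher in 2i (124 and 134 FPKM). Lamb1, the laminin β1 chain, rose from 4.87 and 4.72 FPKM to 15.2 and 13.8 FPKM (1.42 ± 0.11, adjusted p = 0.000183), and lay at 15.7 and 15.5 FPKM in 2i. The laminin-binding integrin chains Itga3 and Itga6 rose by 1.27 ± 0.16 (adjusted p = 0.00131) and 1.05 ± 0.09 (adjusted p = 0.000276). The laminin chains Lamc1 and Lama5 and the proteoglycan Hspg2 did not pass. The count of higher members was 8 in each fit without 1 culture and under each scaling. That of lower members was 1 or 2 without any 1 of the 4 compared cultures and 1 to 5 over the scalings.

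H19, a maternally expressed imprinted lncRNA at chr7:142575529-142578143 (minus strand), was at 2.34 and 0.795 FPKM in 2i+LIF and 94.1 and 111 FPKM in LIF+PD (5.4 ± 0.33, adjusted p = 6.04e-05). It was at 2.21 to 5.94 FPKM in 2i and CH+LIF. Its paternally expressed neighbour Igf2, a growth factor, rose from 0.198 and 0.960 FPKM to 4.28 and 4.29 FPKM (1.79 ± 0.27, adjusted p = 0.00274), so both genes of the domain rose, to very different levels. Of 26 imprinted genes found, 19 were tested. Of these, 11 rose and 4 fell (15.8% and 11% of all tested genes), and 4 did not pass, with a median of 0.69. Nnat (neuronatin) rose from 0.385 and 0.445 FPKM to 3.56 and 4.97 FPKM (1.88 ± 0.19, adjusted p = 0.000434), and Cdkn1c (p57), an inhibitor of the cell cycle, from 3.44 and 2.84 FPKM to 14.6 and 11.8 FPKM (1.77 ± 0.15, adjusted p = 0.000222). Plagl1 (Zac1), a zinc finger factor, fell from 83.0 and 77.4 FPKM to 9.56 and 10.4 FPKM (-2.89 ± 0.12, adjusted p = 1.27e-05). Phlda2, a growth regulator of the placenta that neighbours Cdkn1c, fell from 64.1 and 61.0 FPKM to 8 and 8.14 FPKM (-2.81 ± 0.12, adjusted p = 1.61e-05). Within the Cdkn1c cluster the members named therefore moved in opposite directions. Meg3, a maternally expressed lncRNA, was at 59.6 and 95.3 FPKM in 2i+LIF and 50.0 and 64.9 FPKM in LIF+PD and did not pass. Without replicate 2 of LIF+PD 7 members were higher and 2 lower, without replicate 1 of it 9 and 2, and without replicate 1 or 2 of 2i+LIF 9 and 3 or 8 and 2. The list had no common direction against the other media. Against 2i, 7 were higher and 9 lower (14.6% and 11.7% of all tested genes), and against CH+LIF 7 and 7 (18.6% and 13.1%).

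**Figure D3:**
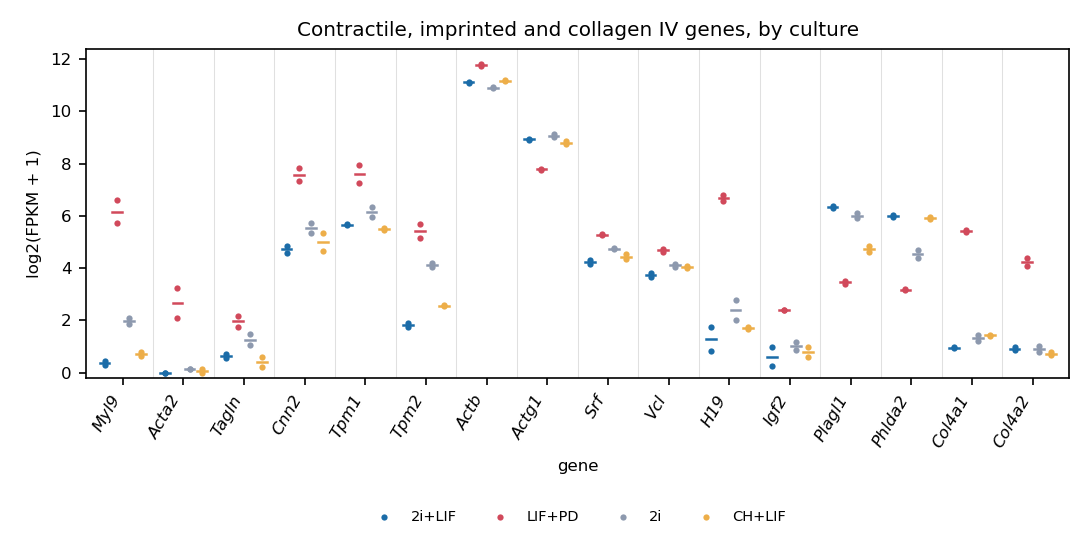
Expression of contractile, imprinted and collagen IV genes, as log2(FPKM + 1) on the y axis, with 1 point per culture, a bar at the mean of 2 cultures and colours for the 4 media. Myl9, H19, Col4a1 and Col4a2 are high in LIF+PD alone (16.1 FPKM or more, against 5.94 FPKM or less), while Actg1, Plagl1 and Phlda2 are lowest there.

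Factors of the naïve network moved unevenly. Of the 12 genes, 5 fell and 2 rose (11% and 15.8% of all tested genes), and 5 did not pass, with a median of -0.28. Gbx2, a homeobox target of LIF signalling, fell most, from 14.9 and 13.5 FPKM to 2.27 and 2.73 FPKM (-2.12 ± 0.15, adjusted p = 0.000105). Tfcp2l1, a factor under Stat3, fell from 115 and 123 FPKM to 57.0 and 48.9 FPKM (-1.16 ± 0.11, adjusted p = 0.000406), and Klf4 from 203 and 196 FPKM to 117 and 103 FPKM (-0.85 ± 0.12, adjusted p = 0.00201). Klf2, a related Krüppel-like factor, fell from 351 and 356 FPKM to 232 and 234 FPKM (-0.60 ± 0.12, adjusted p = 0.00857). Esrrb, a nuclear receptor that Tcf7l1 represses, fell from 243 and 229 FPKM to 190 and 164 FPKM (-0.42 ± 0.11, adjusted p = 0.0253), with adjusted p of 0.0692 to 0.140 without replicate 1 or 2 of 2i+LIF or replicate 2 of LIF+PD. Sall4, a zinc finger factor, rose from 218 and 238 FPKM to 331 and 337 FPKM (0.55 ± 0.09, adjusted p = 0.00339). Nanog, Pou5f1, Sox2, Stat3 and Tbx3 did not pass.

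The same genes were compared with the other media. Against 2i, which lacks LIF, 5 of the 12 genes were higher in LIF+PD and 0 were lower by limma (14.6% and 11.7% of all tested genes). Klf4 was at 47.7 and 50.6 FPKM in 2i (1.15 ± 0.12, adjusted p = 0.000444), and the levels of Gbx2 (2.65 and 2.09 FPKM), Tfcp2l1 (62.8 and 53.7 FPKM) and Esrrb (182 and 155 FPKM) in 2i did not differ from LIF+PD past the threshold. Against CH+LIF, 4 were higher, among them Nanog (305 and 283 FPKM there), and 5 were lower, among them Gbx2 (21.9 and 25.8 FPKM there). The shares of all tested genes in that comparison were 18.6% and 13.1%. Of 18 further naïve markers, 3 rose and 3 fell (16.7% each, against 15.8% and 11% of all tested genes), and 12 did not pass. Both counts depended on single cultures of the 4 compared. Tet1, a dioxygenase that oxidises methylated cytosine, rose from 21.2 and 23.8 FPKM to 56.0 and 41.3 FPKM (1.06 ± 0.20, adjusted p = 0.00674). Zfp42 (Rex1), the reporter gene of the line, was at 217 and 193 FPKM in 2i+LIF and 253 and 260 FPKM in LIF+PD (0.32 ± 0.09, adjusted p = 0.0349), a call lost without replicate 2 of 2i+LIF or either replicate of LIF+PD (adjusted p between 0.111 and 0.179). Dppa3 (Stella) fell from 66.0 and 47.9 FPKM to 25.7 and 29.9 FPKM (-1.0 ± 0.22, adjusted p = 0.0144), with adjusted p of 0.0835 and 0.0905 without replicate 1 of 2i+LIF or of LIF+PD. Dppa3 was at 2.37 and 2.30 FPKM in CH+LIF.

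Genes that mark the formative state, through which naïve cells pass on their way to lineage choice, were mostly higher in LIF+PD than in 2i+LIF. Of 15 tested, 11 rose and 0 fell by limma (15.8% and 11% of all tested genes), and 4 did not pass. The median was 1.08, and 12 had an unadjusted p below 0.05. Otx2, a homeobox factor of the post-implantation epiblast, was at 2.44 and 1.80 FPKM in 2i+LIF and at 50.3 and 49.2 FPKM in LIF+PD (4.03 ± 0.15, adjusted p = 8.15e-06). It was at 13.2 and 16.4 FPKM in 2i and 2.15 and 2.11 FPKM in CH+LIF. Pou3f1 (Oct6) rose from 0.540 and 0.434 FPKM to 3.52 and 3.58 FPKM (1.61 ± 0.21, adjusted p = 0.00153), and Fgf5 stayed below the filter at no more than 0.473 FPKM. The de novo DNA methylation genes moved as follows. Dnmt3a, a DNA methyltransferase, rose from 6.50 and 6.33 FPKM to 43.4 and 31.9 FPKM (2.37 ± 0.17, adjusted p = 0.000137), Dnmt3l, its cofactor, rose from 47.1 and 25.4 FPKM to 165 and 190 FPKM (2.32 ± 0.24, adjusted p = 0.000466), and Dnmt3b, at 35.0 and 33.4 FPKM and 41.9 and 50.9 FPKM, did not pass (adjusted p = 0.147).

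Several of these genes were also high in the other media. Dnmt3l was at 140 to 157 FPKM in 2i and CH+LIF, and Dnmt3a at 63.5 and 51.2 FPKM in 2i. Utf1, a chromatin-associated factor, rose from 90.7 and 65.5 FPKM to 287 and 235 FPKM and was at 263 to 371 FPKM in 2i and CH+LIF. Lin28a, an RNA-binding protein that blocks let-7 maturation, rose from 31.2 and 29.4 FPKM to 81.5 and 103 FPKM and was at 92.9 to 159 FPKM in 2i and CH+LIF. For Dnmt3l, Utf1 and Lin28a it was 2i+LIF that held the lowest level of the 4 media. Against 2i, 5 of the 15 genes were higher and 3 lower in LIF+PD (14.6% and 11.7% of all tested genes). Against CH+LIF, 5 were higher and 5 lower (18.6% and 13.1%). Otx2 and Pou3f1 were higher in LIF+PD than in each of the other media, with differences from 2i of 1.69 ± 0.15 and 1.47 ± 0.21.

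**Figure D4:**
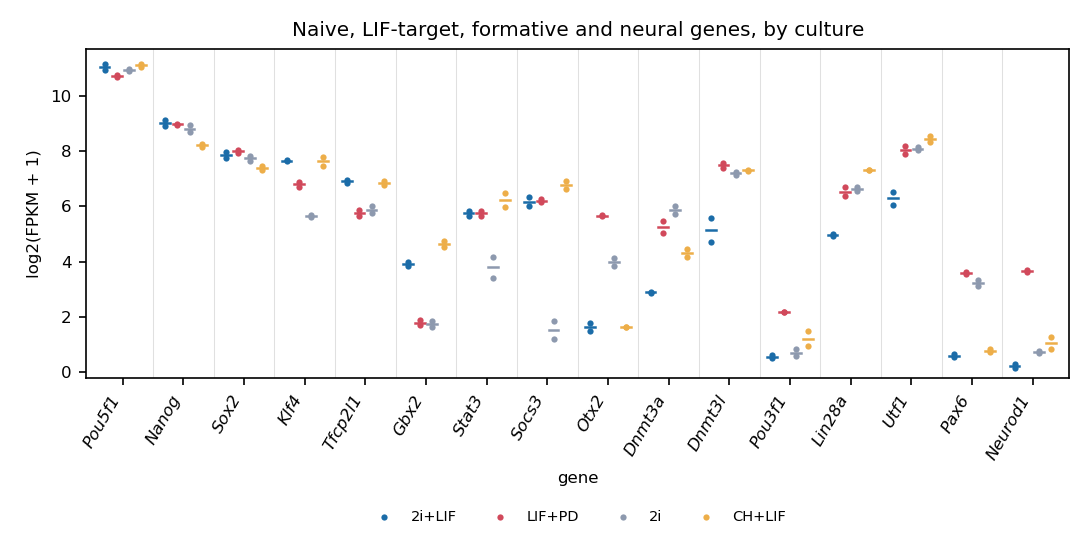
Expression of naïve, LIF-target, formative and neural genes, as log2(FPKM + 1) on the y axis, with 1 point per culture, a bar at the mean of 2 cultures and colours for the 4 media. Gbx2 is low in LIF+PD and 2i (2.09 to 2.73 FPKM), Socs3 is low in 2i alone (2.59 and 1.29 FPKM), and Otx2 is highest in LIF+PD (50.3 and 49.2 FPKM).

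The 15 largest increases and the neural list also held the following genes. Neurod1, a neurogenic bHLH factor, was at 0.127 and 0.225 FPKM in 2i+LIF and 11.5 and 11.9 FPKM in LIF+PD (3.44 ± 0.18, adjusted p = 3.29e-05). Pax6 rose from 0.577 and 0.459 FPKM to 11.3 and 10.7 FPKM (2.98 ± 0.15, adjusted p = 2.63e-05), and was at 7.81 and 9.20 FPKM in 2i, where the difference did not pass (adjusted p = 0.127). Hesx1, an anterior homeobox gene, rose from 2.40 and 2.11 FPKM to 29.2 and 37.7 FPKM (3.39 ± 0.20, adjusted p = 5.67e-05), and did not exceed 0.825 FPKM in 2i and CH+LIF. The collapsin response mediator proteins Crmp1 and Dpysl3, which act on growing axons, rose from 1.38 and 1.77 FPKM to 40.3 and 36.3 FPKM (3.93 ± 0.16, adjusted p = 1.27e-05) and from 2.35 and 3.10 FPKM to 49.4 and 48.8 FPKM (3.76 ± 0.14, adjusted p = 8.15e-06). Gap43, a growth cone protein, rose from 0.323 and 0.147 FPKM to 9.94 and 10.3 FPKM (3.18 ± 0.21, adjusted p = 8.43e-05). Crabp2, which carries retinoic acid to the nucleus, rose from 2.23 and 1.13 FPKM to 50.7 and 47.7 FPKM (4.26 ± 0.29, adjusted p = 0.000101). Of these genes, only Neurod1 and Pax6 were in the neural list. The neurofilament gene Nefm (-4.20 ± 0.27) and the guidance ligand Ntn1 (-4.24 ± 0.12) were among the 15 largest decreases. Of 6 tested genes of the neural list, 4 rose and 0 fell by limma (15.8% and 11% of all tested genes). An unadjusted p below 0.05 was seen for 5. Neurod1 met the filter only with the LIF+PD cultures, where it was high. Sox1, the early neural plate factor, did not pass (0.557 and 0.631 FPKM against 0.748 and 1.34 FPKM), and Neurog2, Dcx and Hes5 were among those below the filter.

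The remaining large increases were of varied function. Gadd45g, a growth arrest protein, rose from 0.725 and 1.18 FPKM to 20.4 and 26.7 FPKM (3.65 ± 0.25, adjusted p = 0.000104). Phf19, a Polycomb-associated protein, rose from 0.312 and 0.410 FPKM to 15.2 and 14.3 FPKM (3.53 ± 0.16, adjusted p = 2.18e-05). Ccl25, a chemokine, rose from 2.81 and 2.49 FPKM to 34.5 and 41.8 FPKM (3.42 ± 0.18, adjusted p = 3.23e-05) and was at 1.25 to 2.01 FPKM in 2i and CH+LIF. The mesendoderm list gave no increase. Of 9 tested from that list, 0 rose and 2 fell (T and Cdx2) by limma, against 15.8% and 11% of all tested genes. These 2 were also the count at an unadjusted p below 0.05. Eomes was at 1.63 and 1.42 FPKM in 2i+LIF and 1.22 and 1.76 FPKM in LIF+PD, and Gsc at 7.71 and 6.26 FPKM and 6.77 and 6.10 FPKM.

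LIF was present in both media. Socs3, the feedback inhibitor induced by Stat3 and chosen after its values had been seen, was at 63.9 and 79.0 FPKM in 2i+LIF, 70.3 and 75.7 FPKM in LIF+PD and 2.59 and 1.29 FPKM in 2i. Of 15 genes of the LIF pathway, 3 rose, 0 fell and 12 did not pass by limma, against 26.7% of all tested genes that passed, and 6 had an unadjusted p below 0.05. Without replicate 1 of 2i+LIF or either replicate of LIF+PD 1 gene was higher. Lifr, the LIF receptor, rose from 7.49 and 7.92 FPKM to 12.3 and 12.4 FPKM (0.62 ± 0.11, adjusted p = 0.00661). Junb, an AP-1 factor induced by LIF, rose by 0.95 ± 0.23, and its call was lost without replicate 1 of 2i+LIF or either replicate of LIF+PD (adjusted p up to 0.109). PD was likewise in both media. In the ERK feedback list, 3 of 15 tested genes rose, 3 fell and 9 did not pass. The shares were 20% each, against 15.8% higher and 11% lower of all tested genes. Spred1 and Spry2, inhibitors of the route from receptors to ERK, fell from 9.25 and 7.92 FPKM to 2.73 and 2.66 FPKM (-1.37 ± 0.12, adjusted p = 0.000276) and from 35.6 and 33.6 FPKM to 18.3 and 18.3 FPKM (-0.88 ± 0.10, adjusted p = 0.000687). Etv4, an ETS factor under ERK, fell from 53 and 43.0 FPKM to 12.1 and 10.1 FPKM (-2.02 ± 0.45, adjusted p = 0.0142), but with an adjusted p between 0.0505 and 0.0785 without any 1 of the 4 cultures. Dusp5, a phosphatase of ERK, rose from 0.982 and 0.609 FPKM to 3.65 and 3.35 FPKM (1.33 ± 0.18, adjusted p = 0.00166). In CH+LIF, without PD, Etv4 was at 184 and 188 FPKM. In 2i, which holds CH and PD, Etv4 was at 8.84 and 2.06 FPKM and Spry2 at 12.3 and 11.3 FPKM, both below their levels in LIF+PD. Spred1 was at 7.89 and 7.27 FPKM in 2i, above its level in LIF+PD.

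In the BMP and TGF-β families, 5 of 18 genes rose and 3 fell (15.8% and 11% of all tested genes), and 10 did not pass. Without replicate 1 or 2 of 2i+LIF 1 and 2 were higher, without replicate 1 of LIF+PD 1 was, and without replicate 2 of LIF+PD 1 was lower. Bmp4, a ligand, fell from 13.2 and 10.7 FPKM to 2.37 and 1.59 FPKM (-2.12 ± 0.17, adjusted p = 0.000166), and was at 65.9 and 72.5 FPKM in CH+LIF. Its targets of the Id family, inhibitors of bHLH factors, did not move together. Id3 fell by 1.58 ± 0.33 (adjusted p = 0.0118, and 0.0720 without replicate 2 of LIF+PD) and Id4 fell by 0.93 ± 0.21 (adjusted p = 0.0159, and up to 0.0918 without 1 culture), whereas Id2 rose by 0.77 ± 0.21 (adjusted p = 0.0324, and up to 0.171). Smad3, which transmits Nodal and TGF-β signals, rose from 20.2 and 18.9 FPKM to 43.6 and 31.0 FPKM (0.88 ± 0.15, adjusted p = 0.00553). The Nodal targets Lefty1 and Lefty2 differed widely between replicates, at 66.4 and 3.08 FPKM and at 107 and 6.00 FPKM in LIF+PD, and neither passed (SE of 1.11 and 1.15).

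Regulators of the cell cycle included genes in both directions. Of 23 tested genes of the MYC and cell cycle list, 8 rose and 3 fell (15.8% and 11% of all tested genes), and 12 did not pass. Fewer were higher without replicate 2 of 2i+LIF or replicate 1 of LIF+PD. Cdkn1a (p21), an inhibitor of cyclin-dependent kinases and a target of p53, fell from 101 and 106 FPKM to 33.9 and 33.6 FPKM (-1.58 ± 0.09, adjusted p = 4.43e-05), and Cdk6 fell from 4.41 and 4.06 FPKM to 0.824 and 0.693 FPKM (-1.57 ± 0.14, adjusted p = 0.000274). Rb1, the retinoblastoma gene, rose from 3.69 and 2.88 FPKM to 23.3 and 15.5 FPKM (2.23 ± 0.34, adjusted p = 0.00289). Ccne1 (cyclin E1) rose from 81.6 and 65.0 FPKM to 161 and 154 FPKM (1.10 ± 0.11, adjusted p = 0.000468), and Cdkn2b (p15) from 1.2 and 1.79 FPKM to 4.51 and 4.25 FPKM (1.12 ± 0.16, adjusted p = 0.00235). Of 14 tested genes of the p53 list, which holds Trp53 itself beside p53 targets, 8 rose, and Cdkn1a was the 1 that fell. The shares of all tested genes were 15.8% and 11%. Perp, an effector of cell death in the membrane, rose from 1.21 and 2.35 FPKM to 10.5 and 11.8 FPKM (2.15 ± 0.30, adjusted p = 0.00203), and Mdm2, the ligase that degrades p53, from 36.3 and 56.6 FPKM to 97.0 and 94.6 FPKM (1.06 ± 0.19, adjusted p = 0.00598). Trp53 itself was at 345 and 293 FPKM and at 344 and 316 FPKM (0.05 ± 0.11, adjusted p = 0.764). Without replicate 1 of 2i+LIF or of LIF+PD, 5 p53 targets were higher.

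Many genes of the lysosome were lower in LIF+PD. Of 29 tested, 13 fell and 1 rose (11% and 15.8% of all tested genes), and 15 did not pass, with a median of -0.56. Npc2, which moves cholesterol out of the lysosome, fell from 126 and 130 FPKM to 42.1 and 42.5 FPKM (-1.58 ± 0.11, adjusted p = 0.000116). The proteases Ctsb and Ctsl fell from 57.1 and 58.7 FPKM to 18.2 and 19.1 FPKM (-1.58 ± 0.10, adjusted p = 7.47e-05) and from 133 and 133 FPKM to 48.4 and 56.7 FPKM (-1.33 ± 0.13, adjusted p = 0.000440), and Hexa, a hexosaminidase chain, from 130 and 141 FPKM to 41.6 and 48.3 FPKM (-1.57 ± 0.15, adjusted p = 0.000341). Ctsa and Fnip2, a partner of folliculin, also fell, by 1.26 ± 0.12 and 1.49 ± 0.15. Ctsd, Psap and Sqstm1 did not pass. The 1 gene that rose was Tfe3, a factor that activates lysosomal genes and was named after its values had been seen, from 89.4 and 75 FPKM to 115 and 119 FPKM (0.51 ± 0.10, adjusted p = 0.00907). The count of lower genes was 11 to 14 without 1 culture and 13 under each scaling. The contrast with other media was mixed. Against 2i, 9 were lower and 6 higher (11.7% and 14.6% of all tested genes), and against CH+LIF 8 and 7 (13.1% and 18.6%). Hexa in CH+LIF (35.1 and 42.6 FPKM), for example, was at the level of LIF+PD (adjusted p = 0.323).

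In the list of Atf4, the factor of the amino acid and stress response, with its targets and serine synthesis genes, more genes rose than fell. Of 19 tested, 12 rose and 1 fell (15.8% and 11% of all tested genes), and 6 did not pass, with a median of 0.41. Ddit4, an inhibitor of mTORC1, rose from 9.83 and 10.1 FPKM to 30.8 and 29.3 FPKM (1.5 ± 0.12, adjusted p = 0.000157), and Chac1, which degrades glutathione, from 4.68 and 2.96 FPKM to 10.1 and 10.6 FPKM (1.26 ± 0.19, adjusted p = 0.00274). Asns (asparagine synthetase), a classical target of Atf4, fell from 456 and 404 FPKM to 197 and 204 FPKM (-1.09 ± 0.10, adjusted p = 0.000283) and was at 398 to 488 FPKM in the other media, so it was low in LIF+PD alone. Atf4 itself did not pass (adjusted p = 0.0568). The count of higher genes was 7 and 3 without replicate 1 or 2 of 2i+LIF and 6 and 5 without replicate 1 or 2 of LIF+PD.

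**Figure D5:**
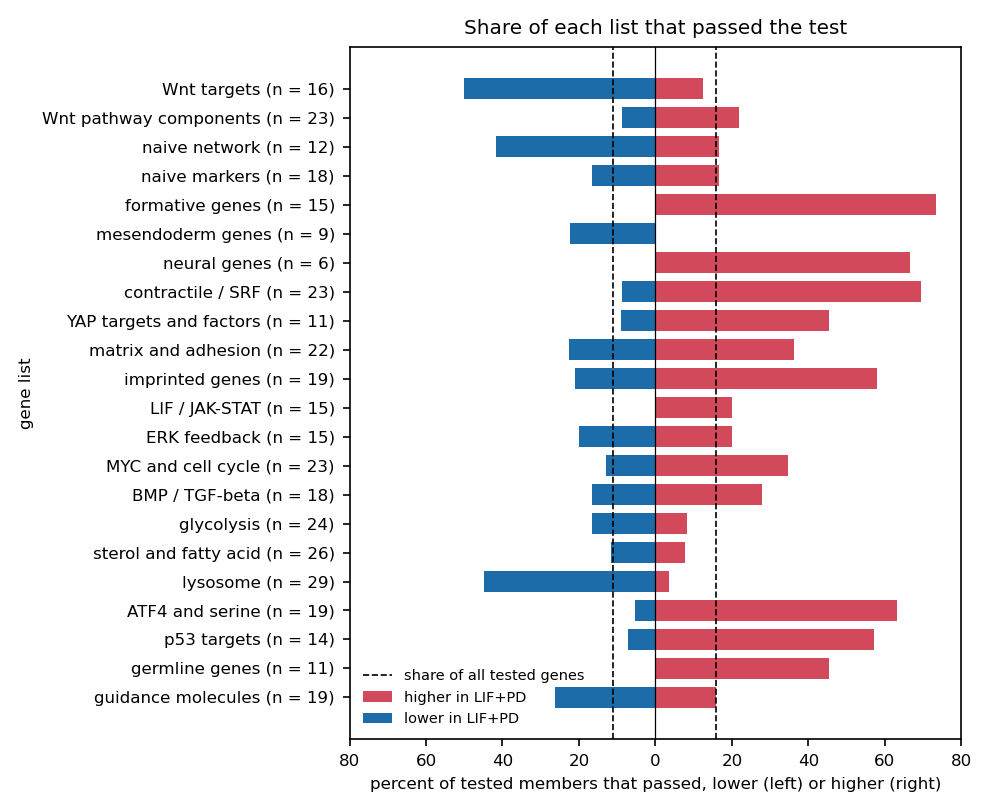
Share of the tested members of 22 gene lists that passed an adjusted p of 0.05 in LIF+PD against 2i+LIF, with higher genes to the right and lower genes to the left, and n the number tested. Dashed lines are the shares of all tested genes (15.8% higher, 11% lower), and formative, contractile and neural genes reach furthest to the right and Wnt targets, lysosomal genes and the naïve network furthest to the left.

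Some of the genes named overlap others. The methods state counting by strand for the gene counts of the study, which were not used here, but not for the deposited FPKM, so whether reads of a partner on the opposite strand entered these values is not known. Partners on the same strand included Mir675 for H19, Cerkl for Neurod1, Gm49154 for Otx2, Gm49394 for Igf2, Gm23497 for Tfcp2l1 and 9230102O04Rik for Gata3. Meg3, Ctnnb1, Ctsl, Ctsd, Sox1 and Pkm also had partners on the same strand. Partners on the opposite strand were found for Axin2 (with Gm11670), Col4a1 and Col4a2 (with each other), Otx2 (with Otx2os1) and Ccl25 (with Elavl1). Such partners also overlapped Nefm (Nefl), Trpm1 (Gm44722), Nkx1-2 (Gm16764), Rb1 (Lpar6) and other genes named.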

How the data were processed

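Single-end reads were obtained from the RNA of 8 cultures. Whether this RNA was depleted of rRNA, as in the methods, or was polyA RNA, as in the sample records, is unclear. The authors aligned reads with tophat2 to mm10 with the Ensembl 75 annotation and kept unique reads, and the submitters' processing notes name TopHat2, Cufflinks and Cuffdiff without versions. The deposited tables hold FPKM for each gene in each culture, and their lower and upper bounds were not used. The gene counts of the study's own test were not used here, so limma replaced a count test.

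From the 39013 entries (22 repeated an Ensembl identifier and were summed) came 38991 genes. Genes shorter than 300 bases (6670) were left out, since FPKM is unstable there, and 12777 genes that reached 1 FPKM in 2 or more of the 8 cultures were tested. Some list members met this filter only with the LIF+PD cultures, where they were high. Among them were Neurod1, Acta2, Pou3f1, Igf2, Atf3 and Mov10l1. Their place in the counts of higher members is therefore no separate support. Values were log2(FPKM + 1), with a pseudocount of 1, so differences of genes with low FPKM are understated. The 4 media were fitted together with limma 3.58.1 in R 4.3.3 (mean-variance trend, 4 residual degrees of freedom), and p-values were adjusted by Benjamini-Hochberg over all tested genes at 0.05. A list's members were described by counts and medians. Tables and figures were made in Python 3.11.15 with pandas 2.3.3 and matplotlib 3.10.9. Promoters are those of RefSeq (GRCm38.p6), and 37427 identifiers were found in GENCODE M21.

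FPKM keep no read number, and whole reads could not be recovered, so no counting error is given. In 3 simulated runs with 200 changed genes among 12777, the test recovered 0% of genes changed by 0.5 on the log2 scale, 66.2% of those changed by 1 and 94% of those changed by 2. Of the calls, 2.93% and 3.41% were unchanged genes at changes of 1 and 2. In the simulated comparison of 2i with 2i+LIF, where no gene was changed, 0 calls arose. The changed genes had a mean log2(FPKM + 1) above 2, and the sizes of the noise were shuffled across genes. The rates of the real comparison may therefore differ.

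The genes named were Axin2, Myl9 and H19, the 15 largest increases and the 15 largest decreases among genes that passed with a mean FPKM of at least 5 in a medium and no overlap of cultures (3 gene models without a descriptive symbol were passed over), the members of the Wnt and naïve network lists, and of each other list up to 6 members that passed and 3 that did not. The members and the 28 lists (459 symbols, 454 matched) were chosen with earlier results of these data known. The alternatives were other pseudocounts, filters, scalings and fits, a replicate block, and the removal of each culture, and TPM over all genes was added after the data had been seen. Values of some single genes are not reported here.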

Additional observations from a re-analysis of the deposited data

How the results depend on the processing

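Of the 237 genes that the rule for named genes covers, 230 were tested and 145 passed, of which 97 passed under all 20 alternatives, 48 lost their call under at least 1, and 10 lost it under a scaling. None of the 145 changed direction. The total number of genes that passed ranged from 1864 to 3524 when 1 culture was left out, the higher genes from 1114 to 2079 and the lower genes from 750 to 1445, where a lone culture was assumed to vary like the others. It was 3104 to 3524 without a 2i or CH+LIF culture. Of the other settings, TPM over all genes gave 930 lower genes against 1400. A fit with a replicate block gave 3617 genes (2094 higher, 1523 lower), of which 3293 were shared with the fit without it. The deviations of same-numbered cultures correlated between 0.0362 and 0.138 over the pairs of media. Such weak positive values cannot decide whether same-numbered cultures shared a batch. In each medium, replicate 1 had the larger share of its FPKM sum in genes shorter than 300 bases. This share was 12.3% against 9.04% in 2i+LIF and 9.83% against 5.62% in LIF+PD. Counts were 3218 and 3408 with pseudocounts of 0.1 and 5, 3186 of 20829 without a filter, 2701 of 9361 with an FPKM of at least 5, 3194 with the 4 cultures alone, 3204 without the trend and 3263 without the length filter. The cause of these shifts was not tested. Of the 3413 genes that passed, 795 differed by less than 0.5 on the log2 scale. The simulated data held 200 changed genes, so their adjusted threshold is not that of this comparison.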

Other observations

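Guidance molecules and their receptors held 19 tested genes, of which 3 were higher and 5 lower in LIF+PD. The higher share (15.8%) equalled that of all tested genes, and the lower share was 26.3% against 11%. Fewer were higher without replicate 1 of 2i+LIF or of LIF+PD. Beside Ntn1, the co-receptor Nrp2 (neuropilin 2) fell from 9.55 and 7.29 FPKM to 1.86 and 1.40 FPKM (-1.84 ± 0.17, adjusted p = 0.000324), and it was at 9.22 to 13.1 FPKM in the other media with CH. The Eph receptor Ephb3 fell from 21.2 and 24.2 FPKM to 9.74 and 9.90 FPKM (-1.13 ± 0.15, adjusted p = 0.00155), while the ephrin ligand Efnb2 rose from 0.497 and 0.363 FPKM to 4.77 and 4.26 FPKM (1.95 ± 0.21, adjusted p = 0.000634). Of 11 tested germline genes, Mov10l1 met the filter only through LIF+PD. By limma 5 were higher and 0 lower (15.8% and 11% of all tested genes), with 8 at an unadjusted p below 0.05. Fewer were higher without any 1 of the 4 compared cultures. Mael, a gene of piRNA-dependent transposon silencing, rose from 1.67 and 1.76 FPKM to 6.98 and 9.15 FPKM (1.73 ± 0.16, adjusted p = 0.000341). The calls of the other 4 (Ddx4, Sycp3, Tuba3a and Mov10l1) were each lost without single cultures, with adjusted p up to 0.232.

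Of 24 glycolysis genes, 2 were higher and 4 lower, a share near the 26.7% of all tested genes that passed, with a median of -0.21, and without replicate 1 of 2i+LIF or replicate 2 of LIF+PD 2 were lower. The neuronal-type glucose transporter gene Slc2a3 fell from 408 and 378 FPKM to 224 and 214 FPKM (-0.84 ± 0.09, adjusted p = 0.000733) and Aldoc, an aldolase, from 48.1 and 40.3 FPKM to 19.3 and 14.5 FPKM (-1.35 ± 0.23, adjusted p = 0.00461), whereas Gapdh, Eno1 and Pkm did not pass. Of 26 genes of sterol and fatty acid synthesis, 2 were higher and 3 lower (15.8% and 11% of all tested genes). Both counts depended on single cultures. Over the scalings the higher count ranged from 1 to 6 and the lower count from 0 to 4, and no named member of the list kept its call without each single culture. Of the markers of other cell types, Gata3, a trophoblast factor, rose from 2.10 and 0.462 FPKM to 14.4 and 18.4 FPKM (3.02 ± 0.52, adjusted p = 0.00484), against 1.70 and 6.83 FPKM in 2i.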
